A study of Mus musculus with 19 samples.

Results

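A set of 8 genes that mark neutrophils and monocytes were followed across mouse liver tumours: Csf3r, Itgam, S100a8, S100a9, Plac8, Ly6c2, Mpo and Ngp. They were the rows of the deposited expression table whose symbols, written there in capitals, were CSF3R, ITGAM, S100A8, S100A9, PLAC8, LY6C2, MPO and NGP. All 8 were found, of 19486 named genes in all. The 19 libraries fell into 5 groups: 5 of MYC_HCC, 5 of MYC_Twist1_HCC, 3 of MYC_OFF, 3 of MYC_Recur and 3 of MYC_Twist1_OFF. HCC is hepatocellular carcinoma, the tissue given for every library, and each came from a tumour of the liver. The labels name the groups by these terms only and give no treatment, time, allele, promoter or age for any of them, so what OFF and Recur stand for is not stated here. The 10 libraries of both HCC groups were marked as re-analysed from an earlier deposit and the other 9 were not. Wherever one of the HCC groups is set against one of the other 3, group and deposit therefore cannot be told apart. MYC_Twist1_HCC against MYC_HCC, MYC_Recur against MYC_OFF and MYC_Twist1_OFF against MYC_OFF lie within 1 deposit.

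Neutrophils and monocytes are short-lived phagocytes that the bone marrow releases into the blood. Granulocyte colony-stimulating factor, acting through its receptor Csf3r, drives neutrophil production, and the integrin subunit Itgam carries both cell types into tissue. Proteins of the granules, such as Mpo and Ngp, are made by immature cells in the marrow, while S100a8 and S100a9 fill the cytosol of mature cells. In liver tumours such cells enter with the blood and sit beside resident macrophages called Kupffer cells.

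The genes did not follow 1 pattern. Csf3r was highest in both OFF groups, S100a9 was lowest there and highest in MYC_Recur, and S100a8 lay in the same range in all 5 groups. The marker label is therefore a list of names here, and no gene below stands for a number of cells. In bulk tissue, fewer cells of a type and less RNA per cell cannot be told apart. The values are normalised signal per gene; differences below are log2 fold changes of (value + 1), tested with limma over the 13253 genes that reached 1 in at least 3 libraries. A difference was called at an adjusted p under 0.05. Mpo did not reach that level in any library, and Ly6c2 and Ngp reached it in 6 and 4 libraries. The p-values set a difference against the spread between libraries within groups, pooled over all 5 groups. Since the labels do not say that libraries of a group came from separate animals, this spread may not be one between animals.

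The values of a library summed to between 507868 and 690310. The 10 highest genes held 21.0% to 28.8% of that sum in the 6 OFF libraries and 6.95% to 12.7% in the other 13. The differences below were therefore also computed under 4 other scalings of the values. The part of composition in the results was not tested otherwise. Myc was between 32.6 and 59.8 in the OFF libraries and between 102 and 180 in the rest. Twist1 was at most 0.27 in any library and at most 0.12 in those labelled MYC_Twist1, so directions between groups labelled with and without Twist1 rest on the labels. In 3 libraries, MYC_HCC 1, 4 and 5, the lowest values rose as genes became shorter. There the 2nd percentile of values above 0 was 4.29 to 8 times as high in genes under 600 bases as in genes of at least 5000 and under 10000 bases, against 0.4 to 1 times in the other 16. Results that rest on MYC_HCC were also computed without these 3 libraries, and levels are not compared between genes.

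**Figure D1:**
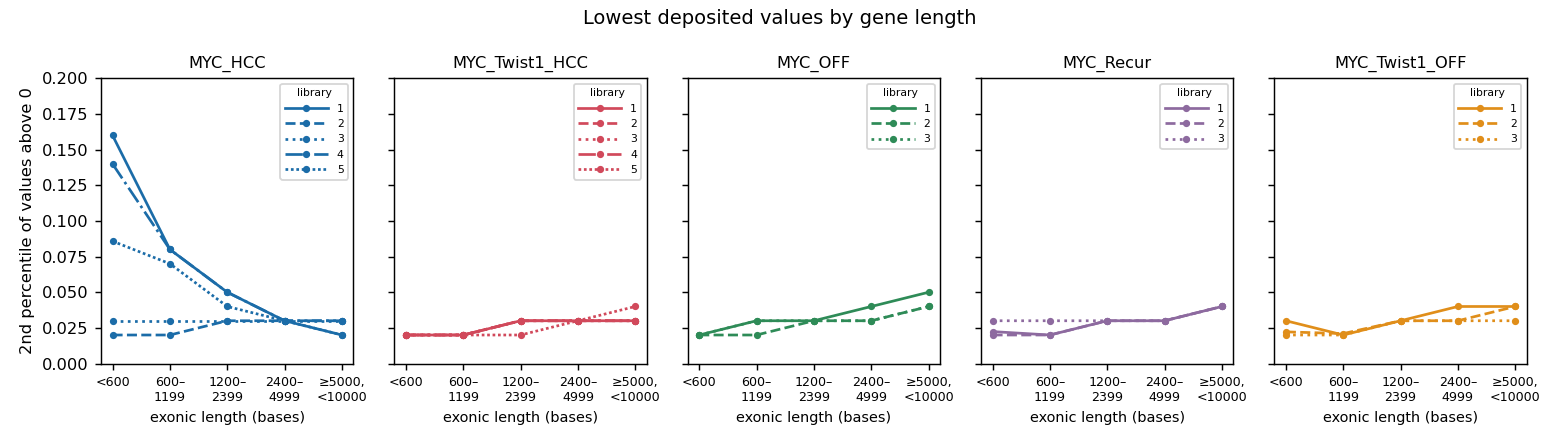
Lowest deposited values (2nd percentile of values above 0, vertical axis) in 5 bins of exonic gene length in bases (horizontal axis), 1 line per library and 1 panel per group. MYC_HCC 1, 4 and 5 fall from between 0.0858 and 0.16 in the shortest genes to at most 0.03 in the longest, and the other 16 libraries do not.

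Csf3r, the receptor for granulocyte colony-stimulating factor (chromosome 4, 126024550 to 126044440, plus strand, GRCm38), was high in both OFF groups and low in the other 3. In MYC_OFF it stood at 46.6, 74.9 and 8.95 and in MYC_Twist1_OFF at 28.3, 12.1 and 18.02. In MYC_HCC it stood at 1.26, 0.54, 1, 0.56 and 0.52 and in MYC_Twist1_HCC at 5.61, 0.37, 2.73, 1.54 and 4. In MYC_Recur it stood at 0.34, 2.16 and 0.8. Every OFF library thus lay above all 13 others, with MYC_OFF 3 the lowest of its group, and the ranges of both OFF groups overlapped. The mean was 43.5 ± 33.1 in MYC_OFF (SD, n = 3) against 0.776 ± 0.336 in MYC_HCC (n = 5), a log2 fold change of 4.24 (SE 0.55, limma adjusted p = 4.71e-06). Without MYC_OFF 2 it was 3.63 and without MYC_OFF 3 it was 5.1. MYC_Twist1_OFF, at 19.5 ± 8.18 (n = 3), was higher than MYC_Twist1_HCC at 2.85 ± 2.05 (n = 5), with a log2 fold change of 2.53 (SE 0.55, limma adjusted p = 0.0012). MYC_Recur, at 1.1 ± 0.946 (n = 3), was lower than MYC_OFF, with a log2 fold change of -4.07 (SE 0.615, limma adjusted p = 3.76e-05). That value was -3.47 without MYC_OFF 2 and -4.93 without MYC_OFF 3. These 3 calls were kept in every alternative run. The ligand Csf3 was at most 0.08 in any library and was not tested.

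Itgam, the alpha subunit that pairs with Itgb2 to form Mac-1 (chromosome 7, 128062640 to 128118491, plus strand), was below 1 in every MYC_HCC and MYC_Recur library. It stood at 0.38, 0.17, 0.67, 0.95 and 0.22 in MYC_HCC and at 0.09, 0.14 and 0.19 in MYC_Recur. In MYC_Twist1_HCC it stood at 2.99, 3.77, 1.89, 0.98 and 3.6. In MYC_OFF it stood at 1.19, 2.46 and 2.69, and in MYC_Twist1_OFF at 0.96, 3.57 and 5.33. All 5 MYC_Twist1_HCC libraries lay above all MYC_HCC libraries, although the gap between 0.98 and 0.95 was narrow. MYC_HCC and MYC_Recur overlapped (log2 fold change of MYC_Recur -0.35, SE 0.349, limma adjusted p = 0.584), and the MYC_Twist1 groups overlapped each other and MYC_OFF. Itgam was higher in MYC_Twist1_HCC than in MYC_HCC (2.65 ± 1.19 against 0.478 ± 0.328, n = 5 each), with a log2 fold change of 1.26 (SE 0.302, limma adjusted p = 0.02). The call was lost without MYC_HCC 5 (adjusted p = 0.0531) and without MYC_Twist1_HCC 1, 2 or 5 (0.0556, 0.0508 and 0.062). It was also lost without MYC_HCC 1, 4 and 5 (adjusted p = 0.159, log2 fold change 1.31). Itgam was higher in MYC_OFF than in MYC_HCC by 1.07 (SE 0.349, limma adjusted p = 0.0142), a call lost without MYC_OFF 2, MYC_OFF 3 or the same 3 MYC_HCC libraries (adjusted p = 0.055, 0.0619 and 0.0543). It was lower in MYC_Recur than in MYC_OFF, with a log2 fold change of -1.41 (SE 0.39, limma adjusted p = 0.00606). The annotation places the protein-coding gene Gm49368 over most of Itgam on the same strand. Gm49368 was not among the deposited genes, and the sources used here do not say how reads in the overlap were counted.

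The partner subunit Itgb2 did not follow Itgam. MYC_HCC had a mean of 7.57 ± 1.68 and MYC_Twist1_HCC one of 7.72 ± 1.09 (n = 5 each), with a log2 fold change of 0.04 between them (limma adjusted p = 0.927). It was 4.67 ± 1.46 in MYC_OFF, 4.82 ± 0.929 in MYC_Twist1_OFF and 8.52 ± 1.76 in MYC_Recur (n = 3 each). By limma, Itgb2 fell from MYC_HCC to MYC_OFF (log2 fold change -0.60, adjusted p = 0.0227), the reverse of the Itgam direction. With 4 other scalings of the values this fell short of the threshold, with a log2 fold change as small as -0.09 and an adjusted p of up to 0.686.

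S100a8 and S100a9 encode the subunits of calprotectin, a calcium-binding complex that is released from neutrophils and monocytes and is read by the receptors Tlr4 and Ager. The genes are neighbours on chromosome 3, S100a8 at 90668978 to 90670035 on the plus strand and S100a9 at 90692632 to 90695721 on the minus strand, with 22596 bases between them. Their promoters are shown because the pair is usually co-expressed and was not alike here. The sequences are from RefSeq on GRCm38.p6, cover the bases before the annotated start, and are printed 5′ to 3′ on the strand of the gene. Capitals mark matches on either strand to a C/EBP motif (TTNCNNAA) or a PU.1 motif (GAGGAA), factors of myeloid cells.
S100a8, chr3:90668821-90668977, plus strand: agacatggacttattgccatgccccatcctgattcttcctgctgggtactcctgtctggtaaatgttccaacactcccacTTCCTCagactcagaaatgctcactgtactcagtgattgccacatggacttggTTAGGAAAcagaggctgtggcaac
S100a9, chr3:90695722-90695971, minus strand: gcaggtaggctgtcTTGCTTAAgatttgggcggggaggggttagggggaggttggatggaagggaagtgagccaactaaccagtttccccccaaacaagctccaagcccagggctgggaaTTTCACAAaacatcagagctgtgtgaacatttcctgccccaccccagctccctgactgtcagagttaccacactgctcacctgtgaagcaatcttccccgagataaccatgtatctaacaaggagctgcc
In the 250 bases before the RefSeq start, S100a8 had 1 C/EBP and 2 PU.1 matches and S100a9 had 2 C/EBP matches and no PU.1 match. The second PU.1 match of S100a8 lies nearer the start than the bases printed. All 8 genes had a promoter in the RefSeq table, and 6 had a C/EBP match and 6 a PU.1 match. Of 32851 promoters of the same length, 36.8% held the first motif and 23.3% the second. The E-box CACGTG, which Myc is known to bind and which 6% of promoters held, was in none of the 8. A match is a string of letters and no measure of binding.

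S100a9 separated the groups and S100a8 did not. S100a9 stood at 11.1, 18.3 and 12.6 in MYC_Recur and at 3.36, 5.64, 6.54, 7.36 and 6.21 in MYC_HCC. In MYC_Twist1_HCC it stood at 3.04, 4.25, 3.3, 7.16 and 1.12. It stood at 2.06, 0.52 and 0.65 in MYC_OFF and at 0.9, 0.67 and 0.31 in MYC_Twist1_OFF. All MYC_Recur libraries thus lay above all others, all MYC_HCC libraries lay above all OFF libraries, and MYC_OFF and MYC_Twist1_OFF overlapped. S100a9 was lower in MYC_OFF (1.08 ± 0.854, n = 3) than in MYC_HCC (5.82 ± 1.51, n = 5), with a log2 fold change of -1.76 (SE 0.353, limma adjusted p = 0.000383). It was lower in MYC_Twist1_OFF (0.627 ± 0.297, n = 3) than in MYC_Twist1_HCC (3.77 ± 2.21, n = 5), with a log2 fold change of -1.44 (SE 0.353, limma adjusted p = 0.00296). In MYC_Recur (14 ± 3.82, n = 3) it was higher than in MYC_OFF by 2.9 (SE 0.394, limma adjusted p = 1.43e-05), a comparison within 1 deposit. These 3 calls were kept in every alternative run. MYC_Recur was also higher than MYC_HCC by 1.14 (SE 0.353, limma adjusted p = 0.0451). That call was lost under all 4 other scalings (adjusted p = 0.0525 to 0.0704), when any 1 of 13 libraries was left out (among them MYC_Recur 2, adjusted p = 0.192) and without MYC_HCC 1, 4 and 5 (adjusted p = 0.259).

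S100a8 stood at 1.76, 2.48, 1.38, 2.71 and 1.32 in MYC_HCC and at 2.8, 1.85, 2.16, 2.31 and 2.78 in MYC_Twist1_HCC. In MYC_OFF it stood at 2.59, 1.73 and 1.4, in MYC_Recur at 1.17, 4.89 and 1.78, and in MYC_Twist1_OFF at 1.64, 2.63 and 4.02. The groups overlapped throughout, and MYC_Recur held both the lowest and the highest library. Log2 fold changes ran from -0.01 in MYC_OFF against MYC_HCC (SE 0.296, limma adjusted p = 0.989) to 0.34 in MYC_Twist1_OFF against MYC_OFF, and none was called. The small difference of MYC_OFF from MYC_HCC took the opposite sign under all 4 other scalings, up to 0.39. The receptor Tlr4 was lower in MYC_OFF (0.153 ± 0.0551, n = 3) than in MYC_HCC (1.15 ± 0.228, n = 5), with a limma log2 fold change of -0.89 and adjusted p = 0.00114. In MYC_Recur it stood at 1.19 ± 0.396 (n = 3), higher than in MYC_OFF by 0.91 (limma adjusted p = 0.00297). Ager ranged from 0 to 2.12 over the libraries.

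**Figure D2:**
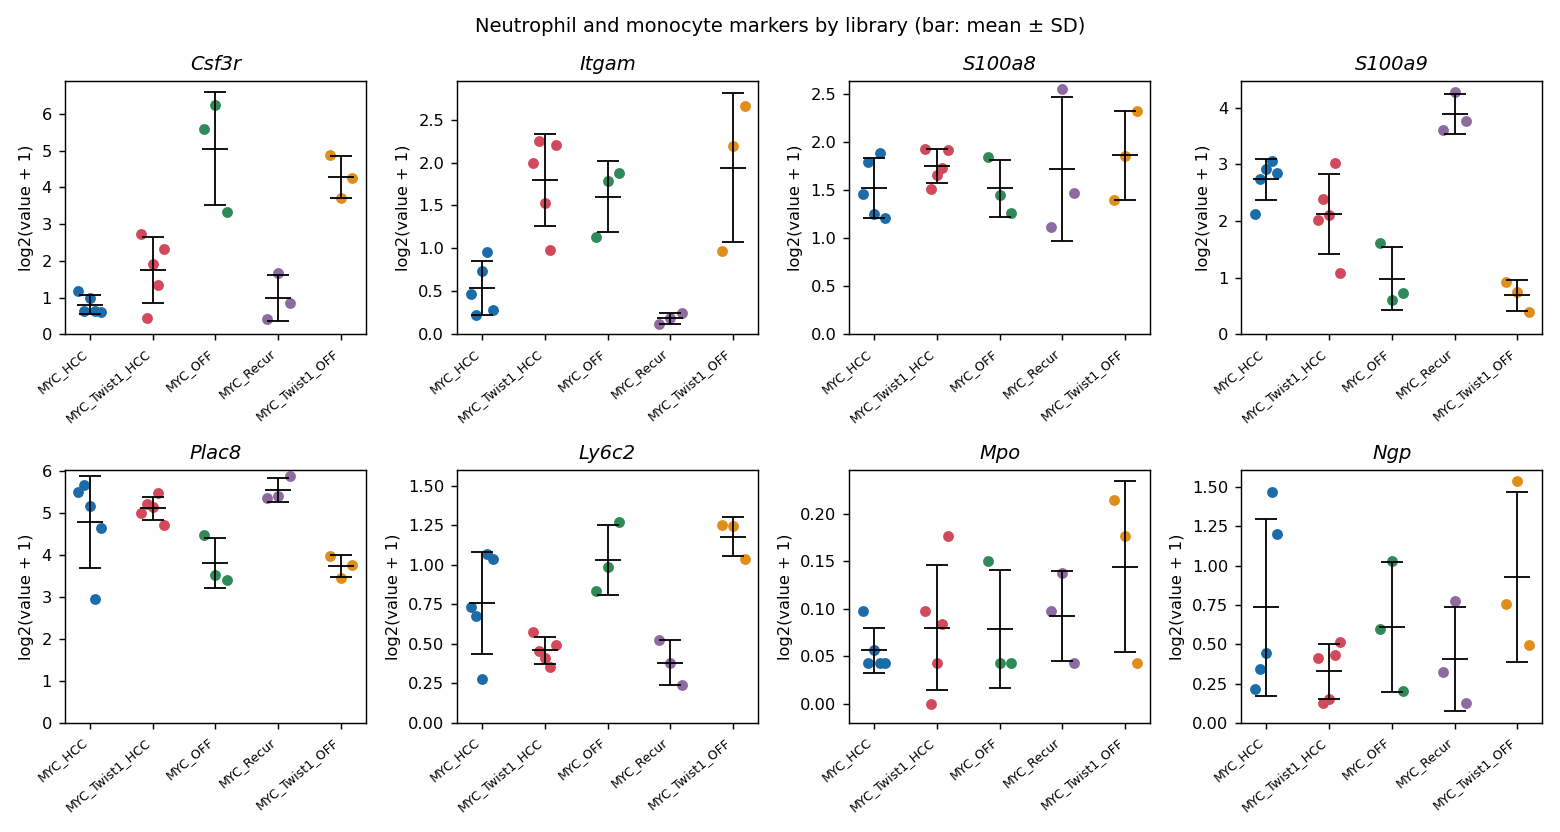
Value of each library as log2(value + 1) (vertical axis) for the 8 genes, 1 panel each, by group (horizontal axis), with the group mean and SD as bars. Csf3r is highest in both OFF groups, S100a9 is highest in MYC_Recur and lowest in the OFF groups, and the groups overlap for S100a8.

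Plac8, a small cysteine-rich protein made by monocytes and other leukocytes (chromosome 5, 100553725 to 100572245, minus strand), stood at 44.7, 49.8, 35.2, 6.76 and 24.0 in MYC_HCC. It stood at 31.1, 36.5, 34.4, 43.6 and 25.4 in MYC_Twist1_HCC and at 40.3, 41.4 and 58.2 in MYC_Recur. In MYC_OFF it stood at 21.4, 10.6 and 9.67 and in MYC_Twist1_OFF at 14.8, 9.99 and 12.6. All OFF libraries lay below all MYC_Twist1_HCC and MYC_Recur libraries, and MYC_HCC 4 lay below every other library. Plac8 was lower in MYC_Twist1_OFF (12.45 ± 2.4, n = 3) than in MYC_Twist1_HCC (34.2 ± 6.73, n = 5), with a log2 fold change of -1.38 (SE 0.443, limma adjusted p = 0.0165). Under the 4 other scalings it was -0.93 to -1.01 and no longer called (adjusted p = 0.0569 to 0.0809), and the call was also lost without MYC_Twist1_OFF 2 (adjusted p = 0.065). Plac8 was higher in MYC_Recur (46.7 ± 10, n = 3) than in MYC_OFF (13.9 ± 6.54, n = 3) by 1.74 (SE 0.495, limma adjusted p = 0.00739), and 3 of the 4 scalings lost this call (1.1 to 1.12, adjusted p = 0.0597 to 0.0665). The difference of MYC_OFF from MYC_HCC (32.1 ± 17.2, n = 5) was -0.98 and was not called (SE 0.443, limma adjusted p = 0.0659). Without MYC_HCC 4 it was -1.44 with an adjusted p of 0.000358, without MYC_OFF 1 it was -1.31 (adjusted p = 0.0327), and without MYC_HCC 1, 4 and 5 it was -1.61 (adjusted p = 0.000864). With the other scalings it was -0.39 to -0.49 and not called.

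Ly6c2 encodes a surface protein that marks inflammatory monocytes (chromosome 15, 75108158 to 75111970, minus strand). It has a near-identical neighbour, Ly6c1, so its values are uncertain where reads were divided between them. It stood at 0.78, 0.98 and 1.41 in MYC_OFF and at 1.38, 1.37 and 1.05 in MYC_Twist1_OFF. In the HCC groups it stood at 0.66, 0.6, 0.21, 1.1 and 1.05 (MYC_HCC) and at 0.49, 0.37, 0.33, 0.28 and 0.41 (MYC_Twist1_HCC). In MYC_Recur it stood at 0.44, 0.3 and 0.18. Every OFF library lay above all MYC_Twist1_HCC and MYC_Recur libraries, and MYC_HCC overlapped both sides. The 6 libraries that reached 1, by which Ly6c2 passed the filter, were of MYC_OFF, MYC_Twist1_OFF and MYC_HCC. The calls below are therefore not independent of the filter, although that of MYC_Twist1_OFF against MYC_Twist1_HCC was kept in every alternative run, 1 of them without it. Ly6c2 was higher in MYC_Twist1_OFF (1.27 ± 0.188, n = 3) than in MYC_Twist1_HCC (0.376 ± 0.0799, n = 5), with a log2 fold change of 0.72 (SE 0.199, limma adjusted p = 0.00703). It was lower in MYC_Recur (0.307 ± 0.13, n = 3) than in MYC_OFF (1.06 ± 0.322, n = 3), with a log2 fold change of -0.65 (SE 0.223, limma adjusted p = 0.0224), a call lost without MYC_OFF 3 (adjusted p = 0.0849), without MYC_Recur 3 (0.0732) and with quantile normalisation (0.0568). The difference of MYC_OFF from MYC_HCC was 0.27 (limma adjusted p = 0.253), and 3 of the 4 other scalings called it at 0.54 to 0.58 (adjusted p = 0.0222 to 0.0334). Ly6c1 fell from MYC_HCC to MYC_OFF by limma (log2 fold change -0.86, adjusted p = 0.0111), a call lost under all 4 other scalings (adjusted p up to 0.244). It is named here after its values were seen.

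Mpo and Ngp, both made by immature cells, were low in all groups. Mpo, the peroxidase of primary granules (chromosome 11, 87793581 to 87804413, plus strand), ran from 0 to 0.16 over the 19 libraries, with its highest value in MYC_Twist1_OFF 1. The antisense gene Gm11505 lies within Mpo, and the sources used here do not say if counting was stranded. Fitted without the filter on low values, Mpo had log2 fold changes of 0.014 to 0.066 and limma adjusted p values of 0.301 to 1. Ngp, a protein of secondary granules (chromosome 9, 110419747 to 110423012, plus strand), stood at 0.16, 0.27, 0.36, 1.76 and 1.3 in MYC_HCC. It stood at 0.33, 0.09, 0.11, 0.35 and 0.43 in MYC_Twist1_HCC, at 0.51, 1.04 and 0.15 in MYC_OFF, at 0.25, 0.71 and 0.09 in MYC_Recur and at 0.69, 1.9 and 0.41 in MYC_Twist1_OFF. All groups overlapped, the high MYC_HCC libraries were 4 and 5, and no difference was called for Ngp, the largest between 2 groups being 0.60 for MYC_Twist1_OFF against MYC_Twist1_HCC (SE 0.31, limma adjusted p = 0.119). Its interaction, as defined below, was 0.73 (SE 0.439, limma adjusted p = 0.703). Among proteases of primary granules, Elane was listed at 0 in all 5 MYC_HCC libraries and was at most 0.16 elsewhere, but Prtn3 was not near 0. Prtn3 stood at 9.56 to 15.73 in MYC_Twist1_HCC and at 1.96 to 3.98 in MYC_Twist1_OFF, with a limma log2 fold change of -1.73 and adjusted p = 0.0421, a call kept in 2 of 6 alternatives (adjusted p up to 0.105).

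Of the 7 genes tested, 5 were called in MYC_Recur against MYC_OFF, with S100a9 and Plac8 higher and Csf3r, Itgam and Ly6c2 lower. In that comparison 49.4% of all genes tested were called, 37.5% higher and 12% lower. In MYC_OFF against MYC_HCC, 3 were called (Csf3r and Itgam higher, S100a9 lower) where 58.3% of all genes were, 18.9% higher and 39.4% lower. In MYC_Twist1_OFF against MYC_Twist1_HCC, 4 were called (Csf3r and Ly6c2 higher, S100a9 and Plac8 lower) where 46.6% of all genes were, 13.1% higher and 33.5% lower. With so many genes called, these counts show nothing particular to the markers. Only Itgam was called in MYC_Twist1_HCC against MYC_HCC, where 6.43% of genes were (3.2% higher and 3.23% lower). Only S100a9 was called in MYC_Recur against MYC_HCC, where 10.8% were (6.9% higher and 3.93% lower). The median log2 fold change over the 7 was -0.20 in MYC_Recur against MYC_OFF, -0.01 in MYC_OFF against MYC_HCC and 0.15 in MYC_Twist1_OFF against MYC_Twist1_HCC, beside 0.45, -0.38 and -0.32 over all genes tested. Under the 4 other scalings the medians over all genes came to between -0.11 and 0.09. The share of called genes that were higher moved with them, for MYC_Recur against MYC_OFF from 75.8% to between 47.9% and 57.8%, for MYC_OFF against MYC_HCC from 32.5% to between 43.6% and 53.4%, and for MYC_Twist1_OFF against MYC_Twist1_HCC from 28% to between 43.6% and 52.5%. The comparisons share groups (MYC_OFF and MYC_HCC each enter several), so their values stand side by side and are not independent.

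No marker was called between MYC_Twist1_OFF and MYC_OFF, where limma called 0.00755% of genes, and none of the 7 had an unadjusted p under 0.05 against 330 of all genes. Csf3r differed there by -0.77 (SE 0.615, limma adjusted p = 1). The interaction sets the difference of MYC_Twist1_OFF from MYC_Twist1_HCC against that of MYC_OFF from MYC_HCC, as the first minus the second. It was called for no marker and for 0.0981% of genes, 0.0226% higher and 0.0755% lower. It was -1.71 for Csf3r (SE 0.778, limma adjusted p = 0.633), and 1 marker and 1033 genes had an unadjusted p under 0.05.

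**Figure D3:**
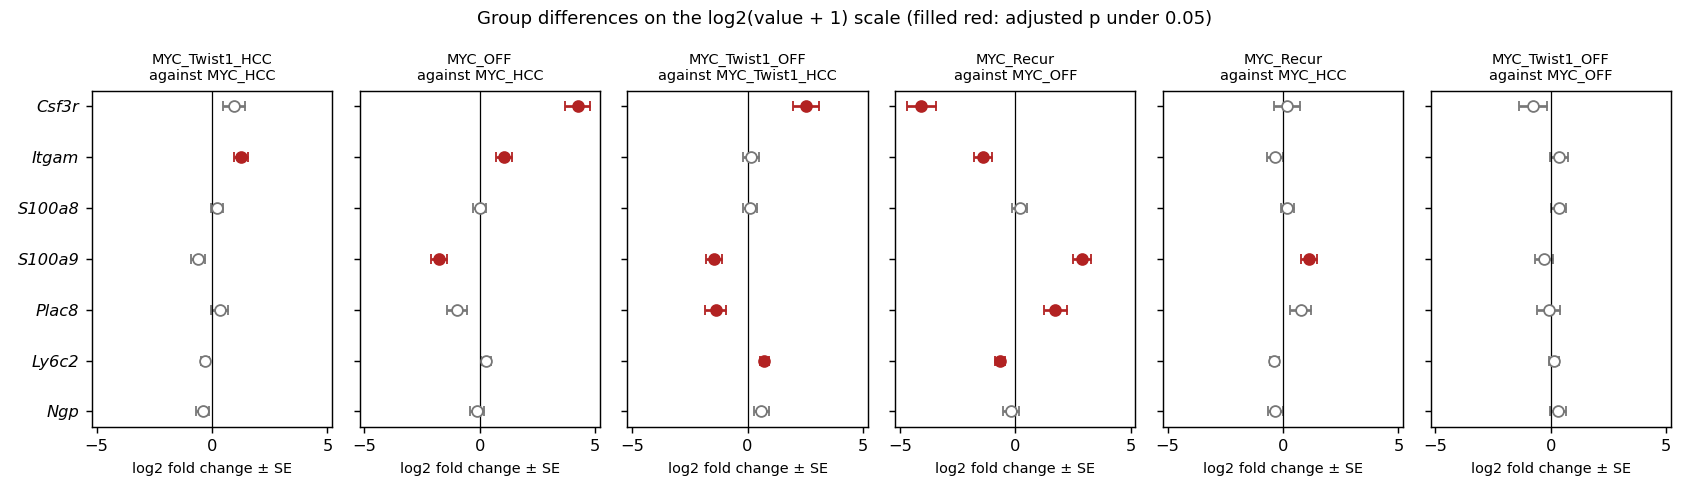
Log2 fold change on the (value + 1) scale with its SE (horizontal axis) for the 7 genes tested (vertical axis), 1 panel per comparison, filled red where limma called it. In MYC_Recur against MYC_OFF, Csf3r lies at -4.07 and S100a9 at 2.9, and no gene is filled in MYC_Twist1_OFF against MYC_OFF.

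Among other surface genes of neutrophils, Cxcr1 was high in MYC_OFF, as Csf3r was. Of a list of 27 surface and mature neutrophil genes, 12 were tested, and in MYC_OFF against MYC_HCC 4 were higher, among them Cxcr1, and 2 lower (Wfdc17 and Itgb2). Over all genes 18.9% were higher and 39.4% lower. The median of the 12 was 0.90, against -0.38 over all genes. Of the list, 23 genes had deposited values, and those below the filter enter neither the counts nor the median. Cxcr1, a receptor for neutrophil-attracting chemokines, stood at 1.4, 1.56 and 5.04 in MYC_OFF against 0 to 0.08 in MYC_HCC (limma log2 fold change 1.7, adjusted p = 0.000127). The groups did not overlap, and the call held under all 4 other scalings. At 0 to 0.08 in MYC_HCC, Cxcr1 could pass the filter only through other groups. Neither its call nor the median of the list is therefore independent of the filter. In MYC_Twist1_OFF against MYC_Twist1_HCC 3 were higher, Cxcr1 among them, and 1 lower (Itgb2), and in MYC_Recur against MYC_OFF 2 were higher (Wfdc17 and Itgb2) and 3 lower, again with Cxcr1. Under 3 of the 4 scalings MYC_OFF against MYC_HCC gave 7 higher and 0 lower, and under all 4 MYC_Recur against MYC_OFF gave 0 higher and 4 to 6 lower.

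Monocyte genes also went both ways. Of the 22 tested genes, 9 were higher and 5 lower in MYC_OFF than in MYC_HCC, and 9 were higher and 2 lower in MYC_Twist1_OFF than in MYC_Twist1_HCC, with medians of 0.75 and 0.70. Over all genes 18.9% were higher and 39.4% lower in the first comparison and 13.1% and 33.5% in the second, with medians of -0.38 and -0.32. Without MYC_HCC 1, 4 and 5, 6 were higher and 4 lower in the first of these. Cx3cr1, the fractalkine receptor of patrolling monocytes, stood at 11.7, 27.5 and 35.3 in MYC_OFF and at 0.22 to 0.97 in MYC_HCC (limma log2 fold change 3.95, adjusted p = 5.04e-07). Cd14, a co-receptor for bacterial lipopolysaccharide, was 9.73 ± 3.6 in MYC_OFF (n = 3) against 0.996 ± 1.01 in MYC_HCC (n = 5) by limma (2.5, adjusted p = 4.46e-05). Klf2, a transcription factor of quiescent leukocytes and of vessel-lining cells, was 139.7 ± 52 against 6.79 ± 5 (4.48, adjusted p = 3.05e-06). Cebpb, a transcription factor of monocytes that hepatocytes also use, went down, from 16.9 ± 2.33 in MYC_HCC (n = 5) to 3.54 ± 0.105 in MYC_OFF (n = 3) by limma (-1.97, adjusted p = 5.48e-07), and was 16.5 ± 4.04 in MYC_Recur (n = 3). In MYC_Recur against MYC_OFF 4 were higher and 6 lower (2 higher and 8 to 11 lower under the 4 other scalings; 37.5% and 12% over all genes), with Cx3cr1 at -2.75 (adjusted p = 9.08e-05) and Cebpb at 1.92 (adjusted p = 4.87e-06). Ccr2, the receptor by which inflammatory monocytes leave the marrow, was at most 0.76 in any library.

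Granule and oxidase genes went both ways. Of 15 tested from a list of 24, 3 were higher and 4 lower in MYC_OFF than in MYC_HCC, where 18.9% and 39.4% of all genes were, and under the other 4 scalings 3 to 6 were higher and 2 or 3 lower. Without MYC_HCC 1, 4 and 5, 3 were higher and 6 lower. The subunits of the phagocyte oxidase split: Ncf1 was higher (limma log2 fold change 0.91, adjusted p = 0.00433) while Ncf4 (-1.06, adjusted p = 0.000159) and the membrane subunit Cybb (-0.94, adjusted p = 0.00707) were lower. Cybb was no longer called under 3 of the 4 scalings (adjusted p up to 0.0977). Pglyrp1, a granule protein that binds bacterial walls, was 4.56 ± 4.11 in MYC_OFF (n = 3) against 0.668 ± 0.181 in MYC_HCC (n = 5) by limma (1.5, adjusted p = 0.00378). Camp, a granule peptide that kills bacteria, was lower in MYC_Recur (0 to 0.22) than in MYC_OFF (1.06, 1.25 and 11.99), with a limma log2 fold change of -1.83 and adjusted p = 0.00946. Padi4, the enzyme that modifies histones in neutrophils, was the 1 gene of the list called in MYC_Recur against MYC_HCC (1.86 ± 0.437, n = 3, against 0.388 ± 0.232, n = 5, limma 1.05, adjusted p = 0.00426), a call lost without MYC_HCC 1, 4 and 5 (adjusted p = 0.0814).

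Ptprc, which encodes CD45, the surface phosphatase carried by nearly all leukocytes, was low where Csf3r was high. It stood at 0.13, 0.5 and 0.85 in MYC_OFF and at 0.31, 0.45 and 0.75 in MYC_Twist1_OFF. MYC_Recur held 4.4 to 5.22, MYC_HCC 3.08 to 5.29 and MYC_Twist1_HCC 1.64 to 6.7, so every OFF library was below every other. Ptprc was lower in MYC_OFF than in MYC_HCC (limma log2 fold change -1.73, adjusted p = 7.3e-05) and in MYC_Twist1_OFF than in MYC_Twist1_HCC (-1.44, adjusted p = 0.000697), and higher in MYC_Recur than in MYC_OFF (1.97, adjusted p = 8.79e-05). Of 19 pan-leukocyte genes tested, 4 were higher and 8 lower in MYC_OFF than in MYC_HCC, 5 and 8 in MYC_Twist1_OFF against MYC_Twist1_HCC, and 6 and 1 in MYC_Recur against MYC_OFF. Of all genes, 18.9% were higher and 39.4% lower in the first, 13.1% and 33.5% in the second and 37.5% and 12% in the third, so these counts show nothing particular to leukocyte genes. The actin bundler Lcp1 was among the lower ones in MYC_OFF (-3.29, limma adjusted p = 5.89e-07), as was the GTPase Rac2 (-2.33, adjusted p = 8.17e-07), while the tetraspanin Cd53 was higher (1.38, adjusted p = 0.000119). Under 3 of the 4 scalings the first comparison gave 7 higher and 7 lower, and without MYC_HCC 1, 4 and 5 it gave 2 higher and 7 lower. The summed level of the 20 genes was 124 to 282 in MYC_OFF, 175 to 270 in MYC_HCC and 190 to 218 in MYC_Recur, and these ranges overlapped.

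Of 24 tested partners of the markers, 3 were higher (Csf3r itself, Socs3 and Cd14) and 10 lower in MYC_OFF than in MYC_HCC, where 18.9% of all genes were higher and 39.4% lower. Socs3, a feedback inhibitor of cytokine receptors that Csf3r signalling induces, was 16.5 ± 8.73 in MYC_OFF (n = 3), 1.4 ± 0.826 in MYC_HCC (n = 5) and 0.76 ± 0.548 in MYC_Recur (n = 3). Its limma log2 fold change was 2.81 in MYC_OFF against MYC_HCC (adjusted p = 1.36e-05), 2.24 in MYC_Twist1_OFF against MYC_Twist1_HCC (adjusted p = 0.000245) and -3.24 in MYC_Recur against MYC_OFF (adjusted p = 1.75e-05). Of 4 S100 relatives in the list, S100a10, S100a11 and S100a6 were lower in MYC_OFF than in MYC_HCC (-1.98, -2.40 and -1.26, limma adjusted p = 1.74e-05, 1.29e-05 and 0.000924). The other one, S100a4, had a log2 fold change of 0.35 and was not called (limma adjusted p = 0.203). Of 11 tested chemoattractants and growth factors, 2 were higher and 4 lower there; Tnf was higher (3.51, adjusted p = 0.00523) and the neutrophil chemokine Cxcl1 lower (-1.42, adjusted p = 0.00779). In MYC_Recur against MYC_OFF 5 of the 11 were higher and 0 lower by limma, where 37.5% of all genes were higher and 12% lower. Among 10 myeloid transcription factors, 2 were higher and 4 lower in MYC_OFF than in MYC_HCC, including Jun (-4.04, adjusted p = 6.4e-08) and Irf8, which directs monocyte fate (-2.44, adjusted p = 0.000617). In MYC_Recur against MYC_OFF 4 were higher and 0 lower. In both comparisons these small counts lie beside the same shares over all genes and show nothing particular to these lists.

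**Figure D4:**
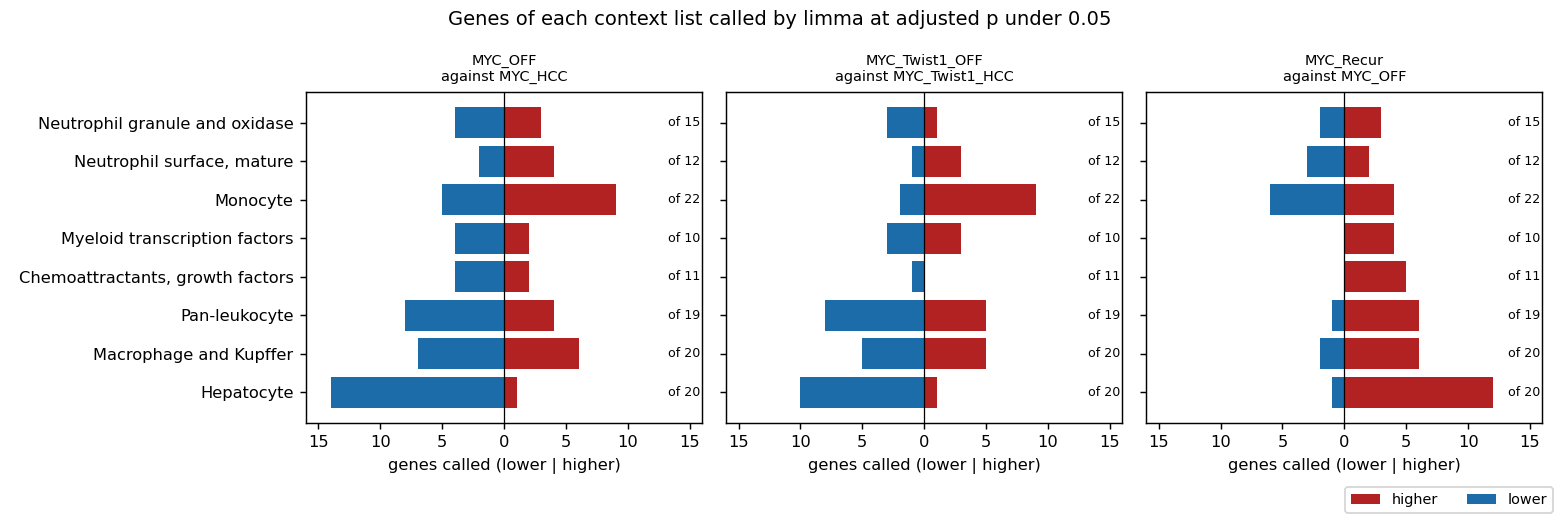
Number of genes called by limma as lower (blue, left) or higher (red, right) in 8 lists (vertical axis) for 3 comparisons, with the number tested at the right of each row. The neutrophil and monocyte lists hold genes in both directions in each panel at the deposited scaling (under other scalings some of their lists were called in 1 direction), and of the 20 hepatocyte genes 14 were lower in MYC_OFF and 10 in MYC_Twist1_OFF.

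Markers of other cells moved in the same libraries. Over all genes tested, 18.9% were higher and 39.4% lower in MYC_OFF than in MYC_HCC. In MYC_Twist1_OFF against MYC_Twist1_HCC the shares were 13.1% and 33.5%. Counts of the lists below under the other scalings are not given here. Of 20 hepatocyte genes, 14 were lower and 1 higher in MYC_OFF than in MYC_HCC (10 and 1 in MYC_Twist1_OFF against MYC_Twist1_HCC), and their summed level was 4815 to 4943 in MYC_OFF against 9470 to 19905 in MYC_HCC, 8065 to 10580 in MYC_Recur and 4515 to 5207 in MYC_Twist1_OFF. Of 10 endothelial genes tested, 3 were higher and 3 lower in that comparison. The summed level of the 14 listed was 85.7 to 112 in MYC_OFF and 88.8 to 168 in MYC_Twist1_OFF, against 18.6 to 29.8 in MYC_Recur, 28.2 to 46.3 in MYC_Twist1_HCC and 23.7 to 120 in MYC_HCC. Of 20 macrophage and Kupffer cell genes, 6 were higher and 7 lower in MYC_OFF than in MYC_HCC. The summed level of the macrophage list was 1042 to 2474 in MYC_OFF, below the 2694 to 4259 of MYC_HCC, and 799 to 1245 in MYC_Twist1_OFF, below the 1987 to 2590 of MYC_Twist1_HCC. Such a sum follows its most abundant genes. The median log2 fold change of the 20 macrophage genes tested was -0.065 in the first comparison and 0.074 in the second. Over all genes tested it was -0.378 and -0.324. Of 19 T and NK cell genes with values, 9 were tested, and limma called 4 as higher in MYC_OFF and 0 as lower. Their list had a summed level of 13.48 to 42.8 against 7.41 to 13.45 in MYC_HCC. Of 12 mast cell, basophil and eosinophil genes with values, 5 were tested, and limma called 4 as higher and 0 as lower. That list had a summed level of 12.4 to 28.4 against 2.94 to 6.36. A gene low in MYC_HCC could pass the filter only through other groups, so these one-way counts give no direction for either list as a whole. The part of the changes in other cells in the values of the markers was not tested.

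The 3 genes most like each marker over the 19 libraries were found by Pearson correlation of log2(value + 1), which describes libraries that fall into groups and differ in composition. Those nearest to Csf3r were Ccdc102a (0.957), Gab3 (0.954) and Tgfbr1 (0.949). The mean of Ccdc102a was 102 in MYC_OFF and 2.02 in MYC_HCC, and that of Tgfbr1 was 142 and 5.4. The nearest to S100a9 were Rps6ka4 (0.961), Gpatch2l (0.944) and Acot2 (0.944). The nearest to Plac8 were Mgst3 (0.963), Phlda2 (0.961) and Gga2 (0.953), and the nearest to Itgam were Dnaja1 (0.89), Myrf (0.869) and Bfar (0.865). Ly6c2 was nearest to Tppp (0.93), Hnmt (0.896) and P2rx7 (0.868), and Ngp to Mmp12 (0.814), Abca6 (0.814) and Gas6 (0.799). S100a8 had the weakest match, with Bbs10 (0.679), Bcl2l2 (0.674) and PYHIN1, printed as deposited (0.651).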

How the data were processed

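RNA of mouse liver tumours, taken with a Qiagen kit after flash freezing per the labels' protocols, was sequenced as 19 libraries made by BGI methods. The authors deposited 1 table of normalised signal per gene symbol, with no formula or unit given. The submitters' processing notes list STAR, featureCounts, DESeq2, Picard and Trimmomatic, with the build mm10, and versions were not given in the sources used here. Depth is therefore unknown, and no counting interval can be given. Of 19511 rows, 25 bare numbers name no gene and were left out. Symbols were matched to mouse names for 18142 of the rest, and coordinates come from GENCODE on GRCm38.

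Values were used as deposited. Genes at 1 or more in at least 3 libraries (13253) were put on the log2(value + 1) scale and fitted by limma 3.58.1 (R 4.3.3, intensity trend) as 1 mean per group with 14 residual degrees of freedom, for 7 comparisons, two-sided with Benjamini-Hochberg adjustment per comparison over all genes tested. Fold changes on this scale understate changes of low genes. The filter drops genes low in all groups and keeps those high in some, so list counts and medians lean toward the latter. Alternatives were 4 other scalings (median of ratios, trimmed mean of M values, upper quartile, quantile), pseudocounts of 0.5 and 0.1, other filters, no trend, only the compared groups, a replicate block and leaving out libraries; leaving out MYC_HCC 1, 4 and 5 together was chosen after seeing the data. Replicate numbers were not used to pair the libraries, except in the replicate block.

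The markers and the gene lists beside them were chosen with earlier results of these data known. All markers are named, with up to 4 genes of a list with the smallest p in a comparison, 1 more where a list went both ways, and the partners Itgb2, Csf3, Tlr4, Ager, Cybb and Ptprc; genes outside this rule are named where a count was 5 or fewer or to place a list, after their values were seen. Promoter sequences are from RefSeq. Spi1, Ly6g, Adgre1 and Chil3 were not analysed here. Some genes of the lists enter the counts and are not reported here by name.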

Additional observations from a re-analysis of the deposited data

Results flagged for a closer look

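Mpo stood at 0.07 in MYC_HCC 1 and at 0.03 or 0.04 in the other 4 MYC_HCC libraries, so that 1 library stood apart from its group. Of 16 sets of 5 libraries checked in this way, this was the 1 that stood apart. Chance alone flags about 1 set in 20, so 1 of 16 is near that rate. MYC_HCC 1 is among the libraries whose lowest values varied with gene length. In the length bin that holds Mpo (3424 exonic bases), the 2nd percentile was 0.03 in each MYC_HCC library. The part of gene length in the Mpo value was not tested.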

How the results depend on the processing

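Of 14 called differences of single markers, recomputed 447 times in all, 403 values kept direction and call, 44 kept direction and lost the call, and 0 reversed. Of 35 uncalled differences, recomputed 1090 times, 9 became called and 38 changed sign. The counts of called markers in MYC_OFF against MYC_HCC (3), in MYC_Twist1_OFF against MYC_Twist1_HCC (4), in MYC_Twist1_OFF against MYC_OFF (0) and in the interaction (0) stayed within 1.5 times in every alternative run. For MYC_Twist1_HCC against MYC_HCC the 1 call went to 0 with quantile normalisation, without MYC_HCC 4 and 5 and without MYC_HCC 1, 4 and 5, and ranged from 0 to 1 with single libraries left out. For MYC_Recur against MYC_OFF the 5 calls became 3 with quantile normalisation. For MYC_Recur against MYC_HCC the 1 call went to 0 with all 4 other scalings, both other pseudocounts, no filter, the replicate block, and without MYC_HCC 4 and 5 or MYC_HCC 1, 4 and 5, and ranged from 0 to 1 with single libraries left out. The cause was not tested.

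Signs changed for these uncalled values. Plac8 in MYC_Twist1_HCC against MYC_HCC was -0.34 without MYC_HCC 4 and 5 and -0.31 without MYC_HCC 1, 4 and 5 (single libraries left out, -0.13 to 0.54); its interaction was 0.26 and 0.22 (-0.62 to 0.054). S100a8 in MYC_OFF against MYC_HCC was 0.36, 0.33, 0.39 and 0.003 with median of ratios, trimmed mean, upper quartile and quantile scaling, 0.029 with the replicate block and 0.014 without MYC_HCC 4 and 5 (-0.17 to 0.12). Ngp there was 0.065, 0.044 and 0.084 with the first 3 scalings and 0.12 with the block (-0.34 to 0.078). S100a8 in MYC_Recur against MYC_OFF was -0.24, -0.19 and -0.23 with the first 3 scalings (-0.22 to 0.5). With single libraries left out, other ranges crossed 0: Ngp in MYC_Recur against MYC_OFF (-0.4 to 0.0087), Itgam and S100a8 in MYC_Twist1_OFF against MYC_Twist1_HCC (-0.21 to 0.63 and -0.12 to 0.35), Csf3r and S100a8 in MYC_Recur against MYC_HCC (-0.17 to 0.44 and -0.23 to 0.49), Itgam, S100a9 and Plac8 in MYC_Twist1_OFF against MYC_OFF (-0.02 to 0.83, -0.48 to 0.022 and -0.28 to 0.26), and the S100a8 interaction (-0.11 to 0.35).

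Of 20 pairs of same-numbered libraries, 7 had correlated deviations above 0.1 (range -0.171 to 0.384). With such small groups these values cannot decide whether the libraries pair. The replicate block also called Plac8 in MYC_OFF against MYC_HCC (-1.31, limma adjusted p = 0.0205) and Ngp in MYC_Twist1_OFF against MYC_Twist1_HCC (0.85, limma adjusted p = 0.0197). Depth is unknown, so low values such as those of Mpo, Ngp and Ly6c2 carry an error that cannot be given.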
